A study of Mus musculus with 23 samples.

Results

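Costimulatory and coinhibitory ligands are the surface proteins through which an antigen-presenting cell sets how strongly a T cell responds to its antigen. The set described here has 10 genes, chosen by symbol: Cd80, Cd86, Cd40, Cd83, Cd70, Icosl, Cd274, Pdcd1lg2, Tnfsf4 and Tnfsf9. All 10 of 10 were found, as 11 of the 28853 probe sets of the array, and all 10 were among the 12157 genes tested. Cd80 had 2 probe sets, and the one with the higher mean stands for it.

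RNA was profiled on 23 Mouse Gene 1.0 ST arrays, each loaded with 1 sorted population of splenic dendritic cells. Type 1 and type 2 conventional cells (cDC1 and cDC2) and plasmacytoid cells (pDC) were taken from wild-type mice (WT) and from mice with a conditional knockout of Bcl6 (Bcl6cKO, written cKO here). Each WT group had 3 arrays, cKO cDC1 had 4, and cKO cDC2 and cKO pDC had 5 each. No stimulus is named in the labels. The Cre driver, the age of the mice, and whether each array had an animal of its own are not given in the sources used here. The p-values therefore reflect the spread among these arrays only, and that spread may be technical.

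T cells need a second signal beside the antigen receptor. CD80 and CD86 on the dendritic cell bind CD28, which activates, and CTLA-4, which inhibits, while ICOS ligand (Icosl) binds the related receptor ICOS. The TNF family ligands CD70, OX40 ligand (Tnfsf4) and 4-1BB ligand (Tnfsf9) prolong the response through CD27, OX40 and 4-1BB. CD40 is itself a receptor, through which helper T cells license dendritic cells, and CD83 is a maturation marker that keeps CD86 and MHC class II at the surface. PD-L1 (Cd274) and PD-L2 (Pdcd1lg2) bind PD-1 and dampen the T cell. BCL6 represses transcription and has been studied most in the germinal centre reaction, in its B cells and in the T cells that help them.

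Levels below are log2 intensities, with 1 unit equal to a doubling, and a level is compared only within a probe set. A difference is called where limma's adjusted p was below 0.05. Counts of genes with an unadjusted p under 0.05 are given without the share of all genes, so they are not read as results. Errors of differences are standard errors (SE) and those of group means are standard deviations (SD). Between 3 arrays and 3 arrays, a lack of overlap alone cannot give less than p = 0.1 in an exact test. The share of all genes without overlap is given only for the genotype comparisons in cDC1 and cDC2. The arrays fell into 3 sets by their median intensity, 8 arrays at 29.3 to 31.0 (set A), 6 at 31.6 to 34.3 (set B) and 9 at 38.9 to 41.2 (set C). Each set held all 6 groups, and no label names the sets. The marker lists followed the labels for cDC1 and pDC, with a mean cDC1 list level of 10.13 in WT cDC1 against 6.35 in WT cDC2, and a mean pDC list level of 11.05 in WT pDC against 6.31 in WT cDC1. The cDC2 list averaged 8.08 in WT cDC2 and 7.62 in WT pDC. Bcl6 itself read 7.02 to 8.12 in WT cDC1 and 8.06 to 8.74 in cKO cDC1; where its probes lie relative to the deleted exons is not known, so it checks nothing and genotype rests on the labels. Xist, a transcript of the inactive X chromosome, was high on array 1 of each WT group (10.90 to 11.89) and at most 5.07 elsewhere, so the genotypes were not balanced for it, and values without those 3 arrays are given where a result rests on them.

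**Figure D1:**
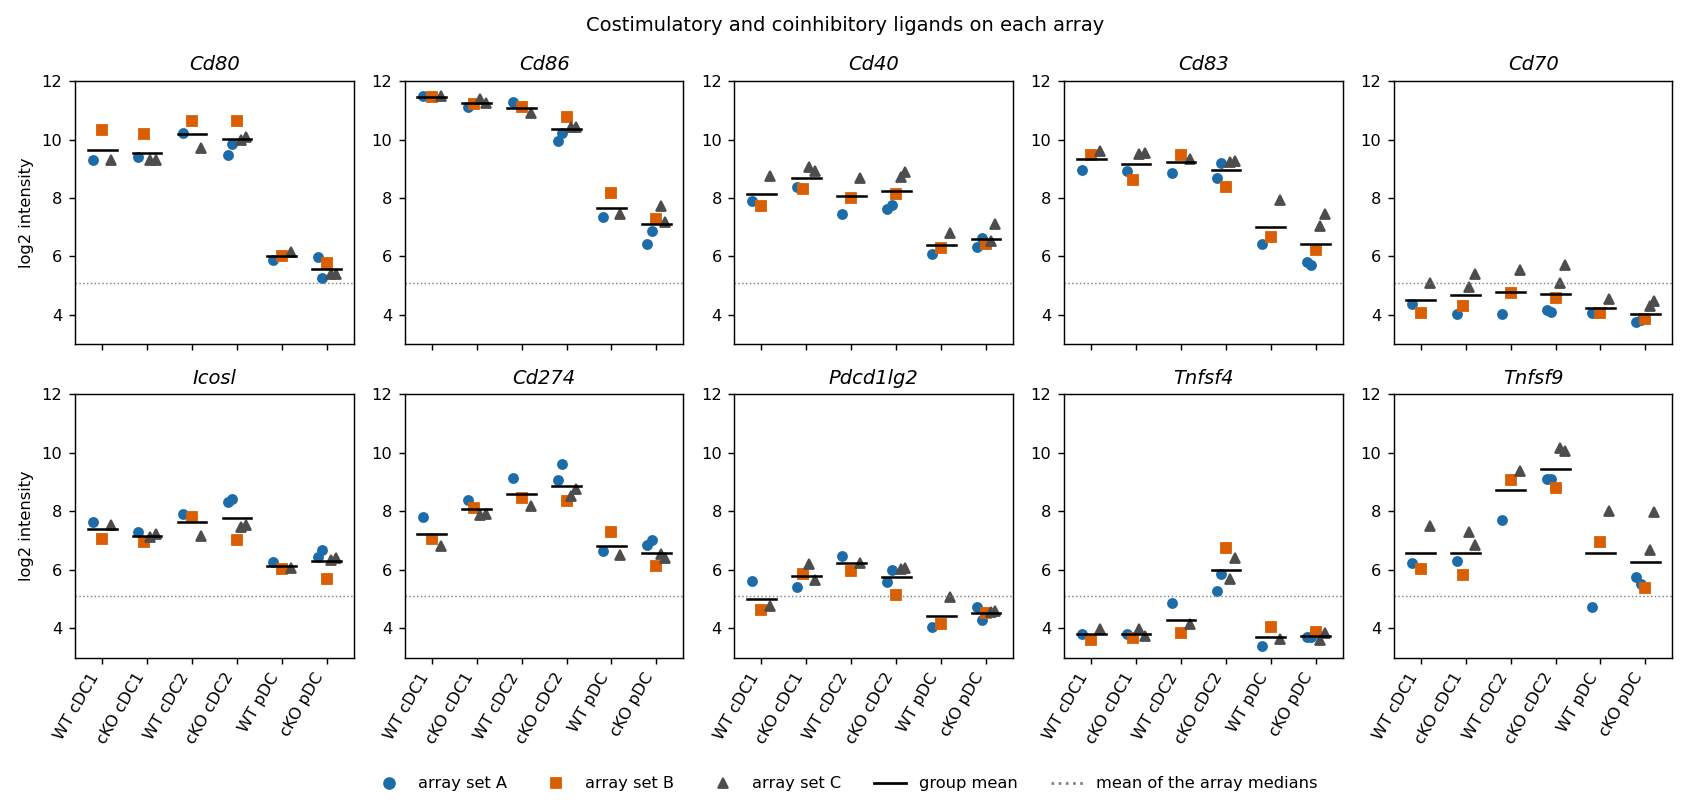
Log2 intensity of each of the 10 genes on each of the 23 arrays, by group on the x axis, with a marker shape per array set, the group mean as a bar and the mean of the array medians as a dotted line. Cd80, Cd86, Cd40, Cd83 and Icosl lie lower on every pDC array than on any cDC array, and Tnfsf4 stands above the dotted line in cKO cDC2 alone.

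Transcripts of both B7 genes were high in conventional dendritic cells and low in pDC. Cd86, on probe set 10439312, read 11.47, 11.44 and 11.49 in WT cDC1, 11.27, 11.10 and 10.90 in WT cDC2, and 7.35, 8.16 and 7.46 in WT pDC. Every cDC array was thus above every pDC array, by 3.81 ± 0.27 (SE; 14.1-fold) for cDC1 and 3.43 ± 0.27 (10.8-fold) for cDC2, with limma adjusted p of 3.51e-10 and 3.25e-09. Cd80 read 9.32, 10.33 and 9.30 in WT cDC1, 10.22, 10.64 and 9.72 in WT cDC2, and 5.87, 6.03 and 6.15 in WT pDC. Its excess over pDC was 3.63 ± 0.32 in cDC1 and 4.18 ± 0.32 in cDC2, or 12.4-fold and 18.1-fold (adjusted p = 1.18e-08 and 2.25e-09). The other Cd80 probe set, 10435704, gave larger gaps of 5.10 and 5.43 (34.3-fold and 43.0-fold), with pDC values of 3.81 to 5.29, so the direction is shared by both probe sets and the size of the fold is not. Less RNA per cell and fewer cells that carry it cannot be told apart in sorted bulk samples.

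The same order held for CD40, CD83 and ICOS ligand, with smaller gaps. Cd40 read 7.91, 7.72 and 8.75 in WT cDC1, 7.44, 8.02 and 8.69 in WT cDC2, and 6.08, 6.29 and 6.81 in WT pDC. Its cDC excess was 1.73 ± 0.36 (3.33-fold) and 1.66 ± 0.36 (3.15-fold), with adjusted p of 0.00136 and 0.00221 in limma. Cd83 read 8.94, 9.47 and 9.62 in WT cDC1, 8.85, 9.48 and 9.35 in WT cDC2, and 6.42, 6.67 and 7.95 in WT pDC. The pDC arrays were the lowest and also the most spread, and the excess was 2.33 ± 0.43 and 2.22 ± 0.43 (5.04-fold and 4.65-fold; adjusted p = 0.000347 and 0.000658). For Icosl the values were 7.64, 7.05 and 7.52 in WT cDC1, 7.91, 7.81 and 7.15 in WT cDC2, and 6.28, 6.04 and 6.06 in WT pDC. These groups did not overlap, and Icosl was 2.42-fold higher in cDC1 (1.27 ± 0.31, adjusted p = 0.00613) and 2.82-fold higher in cDC2 (1.5 ± 0.31, adjusted p = 0.00158). Without the high-Xist arrays the cDC1 difference was 1.23 and did not pass (adjusted p = 0.0597). Within the cDC, Cd80, Cd40, Cd83 and Icosl were called neither between cDC1 and cDC2 nor between genotypes, and every pair of neighbours in the order of their 4 cDC group means overlapped on single arrays.

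Across the set, 5 of 10 genes were called higher in WT cDC1 than in WT pDC, where 8.37% of all genes tested were called higher, and none was called lower. In WT cDC2 against WT pDC 8 of 10 were higher, all but Cd70 and Tnfsf4, with 7.93% of all genes called higher. The median difference of the 10 was 0.93 and 1.79 in these comparisons, beside 0.05 and 0.02 over all genes; they share the WT pDC arrays. In cKO, 7 of 10 exceeded pDC in cDC1 (12.5% of all genes higher), adding Cd274 and Pdcd1lg2, and 9 of 10 did so in cDC2 (13.5% of all genes higher), all but Cd70. The median difference was 1.36 and 2.27, against 0.05 and 0.02 over all genes. Icosl in cDC1 was the weakest of the cKO calls, at 0.85 ± 0.26 (adjusted p = 0.0198). It was lost without cKO cDC1 array 1 or 4 or cKO pDC array 3 (adjusted p = 0.056, 0.0534 and 0.0576), with median centring (0.0625) and with quantile normalization (0.0521). Among the WT cDC2 calls, that of Tnfsf9 was lost without the high-Xist arrays (adjusted p = 0.186). The B cell markers, 9 of 10 of them tested, averaged 5.59 to 6.65 on single pDC arrays and 4.29 to 5.16 on cDC arrays. Ms4a1 went the other way between cDC1 and pDC, with means of 7.52 in WT cDC1 and 6.64 in WT pDC. The part of B cells in these values was not tested.

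**Figure D2:**
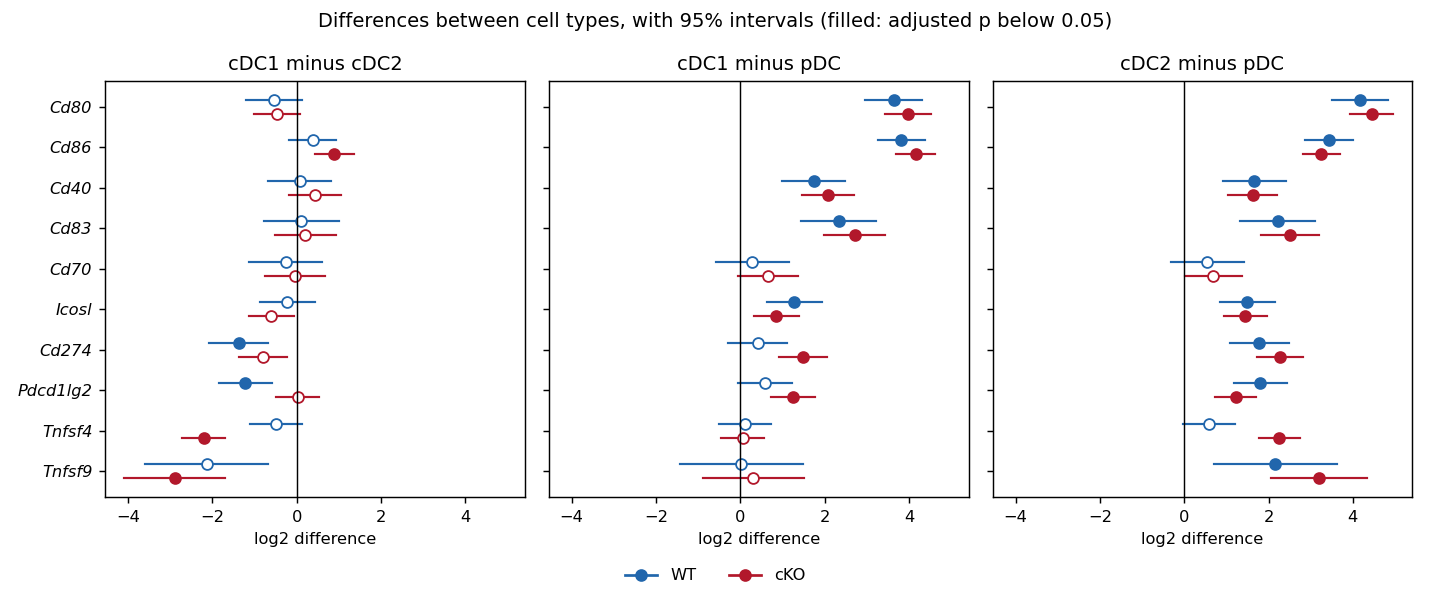
Log2 difference between cell types for each gene, in 3 panels (cDC1 minus cDC2, cDC1 minus pDC, cDC2 minus pDC), with 95% intervals, WT and cKO in separate colours and filled points for an adjusted p below 0.05. The pDC panels lie to the right of 0 for all 10 genes, while in the cDC1 minus cDC2 panel Tnfsf9 lies farthest to the left.

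The PD-1 ligands differed between the 2 conventional types in WT cells. Cd274 and Pdcd1lg2 are direct neighbours on mouse chromosome 19 in the RefSeq gene order, and the 250 bases before each gene start are printed because both genes were lower in WT cDC1 than in WT cDC2. Both are from RefSeq, assembly GRCm38.p6, plus strand, 5′ to 3′, at chr19:29367188-29367437 for Cd274 and chr19:29410669-29410918 for Pdcd1lg2. Capitals mark a match to the core of an interferon response element in Cd274 and to the NF-kB consensus in Pdcd1lg2.
Cd274: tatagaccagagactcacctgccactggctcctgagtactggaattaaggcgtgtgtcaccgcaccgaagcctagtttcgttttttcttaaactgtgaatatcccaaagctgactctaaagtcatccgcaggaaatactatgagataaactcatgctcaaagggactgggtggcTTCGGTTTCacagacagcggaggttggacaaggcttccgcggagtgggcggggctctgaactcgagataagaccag
Pdcd1lg2: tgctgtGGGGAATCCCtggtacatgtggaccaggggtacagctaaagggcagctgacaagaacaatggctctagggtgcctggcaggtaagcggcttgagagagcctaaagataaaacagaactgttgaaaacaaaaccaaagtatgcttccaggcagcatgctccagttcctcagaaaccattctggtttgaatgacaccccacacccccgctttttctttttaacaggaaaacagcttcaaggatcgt
RefSeq promoter entries, which run from 250 bases before to 50 after the start, were found for 4 of the 10 genes (Cd80, Icosl, Cd274 and Pdcd1lg2). They were searched on both strands for GAAANNGAA (the core of an interferon response element), TTCNNNGAA (a STAT site), TTCCTNGAA (a BCL6 core, whose letters also match the STAT site) and the NF-kB consensus. These were present in 8.56%, 8.3%, 1.59% and 4.51% of 32841 promoters of the same length. Cd274 held the interferon core on the minus strand at position −76 relative to the gene start, and Pdcd1lg2 held the NF-kB consensus at −244 on the plus strand. The interferon core followed by a further A, which was searched first, was in none of the 4 windows and in 3.44% of all promoters. No other match was found among the 4. A match describes letters in a window, and its absence says nothing about the factors.

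Cd274 read 7.81, 7.06 and 6.80 in WT cDC1 and 9.14, 8.47 and 8.18 in WT cDC2. Every WT cDC1 array was below every WT cDC2 array, by 1.37 ± 0.33 (SE) on the log2 scale or 2.59-fold (limma adjusted p = 0.0109). Within sets A, B and C the difference was −1.33, −1.41 and −1.38. Pdcd1lg2 read 5.63, 4.63 and 4.76 in WT cDC1 and 6.49, 5.97 and 6.22 in WT cDC2. It was 2.33-fold lower in cDC1 (log2 difference −1.22 ± 0.31, adjusted p = 0.014), again with no overlap. These were 2 of 10 genes called, where 6.05% of all genes were called in either direction, and the median of the 10 was −0.38 beside 0.04 over all genes. Both calls were lost when WT cDC1 array 2 or 3 or WT cDC2 array 1 was left out, with adjusted p of 0.053 to 0.0953. Both were also lost when only the groups compared were fitted (adjusted p = 0.0508 and 0.0541), and that of Cd274 when each array was centred on its median (0.0574). Without the 3 arrays of high Xist the differences were −1.39 and −1.40 (adjusted p = 0.0429 and 0.0206).

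In cKO cells the mean of Cd274 was again lower in cDC1, and the means of Pdcd1lg2 lay close together. Cd274 read 8.39, 8.11, 7.88 and 7.91 in cKO cDC1 and 9.08, 9.60, 8.35, 8.51 and 8.77 in cKO cDC2, overlapping by a single array, with a difference of −0.79 ± 0.27 (adjusted p = 0.0818). That difference was called under 4 alternatives: 3 array sets as a term (adjusted p = 0.00964), 2 sets (0.0344), array weights (0.00297) and the replicate block (0.00743). Pdcd1lg2 read 5.41, 5.87, 6.18 and 5.64 in cKO cDC1 and 5.59, 5.98, 5.12, 6.02 and 6.06 in cKO cDC2, with a difference of 0.02 ± 0.25 (adjusted p = 0.988). Against pDC both were called in cKO cDC1, Cd274 at 1.48 ± 0.27 (2.79-fold, adjusted p = 0.000272) and Pdcd1lg2 at 1.24 ± 0.25 (2.37-fold, adjusted p = 0.000674). In WT cDC1 the same differences were 0.41 ± 0.33 and 0.59 ± 0.31 (adjusted p = 0.576 and 0.267).

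Set directly by genotype, PD-1 ligands in cDC1 were higher in cKO on average without passing over all genes. Cd274 was 0.85 ± 0.31 higher (1.80-fold), every cKO cDC1 array lying above every WT cDC1 array, at an unadjusted p of 0.0127 and an adjusted p of 0.657 in limma. With the 3 array sets as a term it was 0.91 and passed (adjusted p = 0.026), the only 1 of 14 alternatives in which it did. It was called in 0 of the 23 fits with 1 array left out. Within the sets the difference was 0.58, 1.05 and 1.09. Pdcd1lg2 was 0.77 ± 0.29 higher (adjusted p = 0.675), with overlapping arrays and differences of −0.21, 1.24 and 1.15 within the sets. Without the high-Xist arrays the differences were 1.14 for Cd274 and 1.08 for Pdcd1lg2 (adjusted p = 0.246 and 0.173). Markers of cDC2 moved with this comparison: Cd209a (3.20 ± 0.26), Sirpa (2.27 ± 0.41) and Itgam (2.14 ± 0.28) rose, 3 of 10. The other 7 were not called, 5 of them below 0 (Cd4, Clec4a4, Irf4, Mgl2 and Notch2); the median of the 10 was 0.12, and the list averaged 5.21 to 5.60 in WT and 6.04 to 6.34 in cKO cDC1. Of the 10 migratory mature dendritic cell genes tested all 10 were above 0 with a median of 0.24, Socs2 rose (1.69 ± 0.31, adjusted p = 0.00311), and the list averaged 7.82 to 8.43 in WT and 8.28 to 8.92 in cKO cDC1. Of the 7 monocyte and neutrophil genes tested 0 were called and 5 were above 0, with a median of 0.88 and overlapping list levels of 5.85 to 7.41 and 5.73 to 8.44. Over all genes in this comparison, 7593 of 12157 were above 0, with a median of 0.06. The part of these markers in the cDC1 results was not tested. The genotype difference of Pdcd1lg2 in cDC1 exceeded that in cDC2 by 1.24 ± 0.40, at an unadjusted p of 0.00471 and an adjusted p of 0.483.

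OX40 ligand was the only gene of the set called between genotypes when no array set was fitted as a term. Tnfsf4, on probe set 10351095, read 4.87, 3.84 and 4.15 in WT cDC2 and 5.28, 5.87, 6.75, 5.68 and 6.42 in cKO cDC2. All 5 cKO arrays lay above all 3 WT arrays. The rise was 1.71 ± 0.27 (SE), or 3.27-fold, from 4.29 ± 0.53 (SD, n = 3) to 6.0 ± 0.59 (SD, n = 5), with a limma adjusted p of 0.000506. The other 15 arrays read 3.41 to 4.06, and only the 5 cKO cDC2 arrays exceeded their own array median. Tnfsf4 therefore entered the test through the group in which it was high, and its WT level is near the bottom of the scale, where a fold may be understated.

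The call did not rest on a single array, and no fit left out a whole array set. Within sets A, B and C the rise was 0.70, 2.91 and 1.89, and it was called in each of the 23 fits that left out 1 array. Without the high-Xist arrays, among them the highest WT value of 4.87, it was 2.0 (4.0-fold, adjusted p = 0.000641). In cKO, Tnfsf4 was 4.61-fold higher in cDC2 than in cDC1 (log2 difference of cDC1 minus cDC2 −2.20 ± 0.25, adjusted p = 8.4e-07) and 4.79-fold higher than in pDC (2.26 ± 0.23, adjusted p = 8.1e-08). In WT the difference from cDC1 was −0.49 ± 0.30 (adjusted p = 0.579) and from pDC 0.59 ± 0.30 (adjusted p = 0.254).

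The genotype differences of Tnfsf4 in the other populations were near 0, at −0.01 ± 0.28 in cDC1 and 0.05 ± 0.27 in pDC. Every cDC1 and pDC array lay below its own array median, near the bottom of the scale, where a change may go unseen. Tested as a difference of differences, the rise in cDC2 exceeded that in pDC by 1.66 ± 0.38 (adjusted p = 0.0461), 1 of 10 genes called where 0.485% of all genes were. That call was made in 3 of the 23 fits with 1 array left out, and the smallest difference over the 23 was 1.44, without WT cDC2 array 2 (adjusted p = 0.203). It was lost under 7 of the 13 alternatives that tested it, median centring and the fit without a filter among them. Against cDC1 the difference was −1.71 ± 0.39 for cDC1 minus cDC2, with an adjusted p of 0.0692 and 0 of 10 genes called (0.28% of all genes; Tnfsf4 and Pdcd1lg2 had an unadjusted p under 0.05). With the array set as a term it passed (adjusted p = 0.018), as did 1.22% of all genes. No gene of the set was called for cDC1 against pDC, where 0.329% of all genes were and Cd274 alone had an unadjusted p under 0.05.

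**Figure D3:**
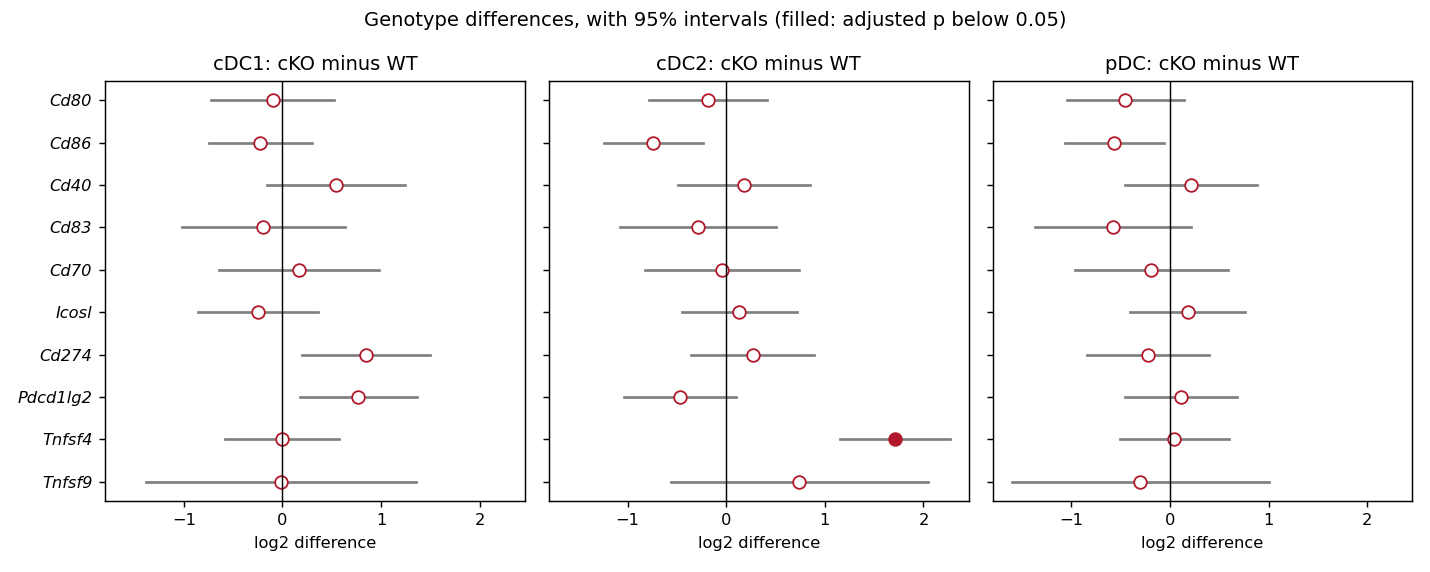
Log2 difference of cKO minus WT for each gene in cDC1, cDC2 and pDC, with 95% intervals and filled points for an adjusted p below 0.05. Tnfsf4 in cDC2, at 1.71, is the single filled point of 30.

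Across the set, few genes were called between genotypes. In cDC1 0 of 10 genes were called (0.831% of all genes; 2 of 10, Cd274 and Pdcd1lg2, had an unadjusted p under 0.05), in cDC2 1 of 10 (1.56% of all genes), and in pDC 0 of 10 (0.0329% of all genes; 1 of 10, Cd86, had an unadjusted p under 0.05). These shares of all genes are of calls at an adjusted p below 0.05, and none is given for the unadjusted p. The median difference of the 10 was −0.01 in cDC1, 0.05 in cDC2 and −0.21 in pDC, beside 0.06, 0.07 and 0.05 over all genes. With the array set as a term 1 gene was called in cDC1, Cd274, as were 1.74% of all genes, and 2 in cDC2, Tnfsf4 and Cd86, as were 4.6% of all genes. The widest 95% interval in cDC1 was that of Tnfsf9, from −1.38 to 1.35, so a difference of up to this size is not excluded for it; that of Cd274 ran from 0.20 to 1.5.

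Cd86 had the lower values in cKO cDC2, against the direction of Tnfsf4. It read 9.95, 10.21, 10.76, 10.41 and 10.41 on the cKO arrays, all below the WT range of 10.90 to 11.27. The difference was −0.74 ± 0.24 (1.67-fold lower), with an unadjusted p of 0.00561 and an adjusted p of 0.21 in limma, and −1.19, −0.34 and −0.49 within the sets. Without the high-Xist arrays, among them the highest WT value of 11.27, it was −0.65 (limma adjusted p = 0.63). With the 3 array sets as a term it was −0.71 and passed (adjusted p = 0.039), the only 1 of 14 alternatives in which it did. It was called in 0 of the 23 fits with 1 array left out. In cDC1 the cKO values of 11.12, 11.22, 11.39 and 11.25 were also all below the WT values, by 0.22 ± 0.25 on average (adjusted p = 1.0). Groups that did not overlap were 2 of 10 in cDC1 (Cd86 and Cd274; 4.22% of all genes) and 2 of 10 in cDC2 (Cd86 and Tnfsf4; 4.71% of all genes). In pDC, Cd86 read 6.43, 6.86, 7.29, 7.72 and 7.17 on cKO arrays, overlapping WT, at −0.56 ± 0.24 (adjusted p = 1). Between the cell types of cKO mice, Cd86 was 1.86-fold higher in cDC1 than in cDC2 (0.90 ± 0.22, adjusted p = 0.00952; lost with quantile normalization); in WT that difference was 0.38 ± 0.27 (adjusted p = 0.708).

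4-1BB ligand was the ligand with the widest gap between cDC2 and cDC1. Tnfsf9 read 6.22, 6.03 and 7.50 in WT cDC1, 7.70, 9.07 and 9.39 in WT cDC2, and 4.73, 6.95 and 8.01 in WT pDC. The WT cDC1 and cDC2 arrays did not overlap, but the spread within groups was wide, and the difference of −2.14 ± 0.70 did not pass (adjusted p = 0.082 in limma). It passed under 7 of the 14 alternatives, among them median centring and quantile normalization. In cKO, Tnfsf9 read 6.29, 5.84, 7.28 and 6.85 in cDC1 and 9.11, 9.12, 8.82, 10.17 and 10.07 in cDC2. It was 7.43-fold lower in cDC1 there (−2.89 ± 0.58, adjusted p = 0.00133), with Tnfsf4 and Cd86 the other calls of that comparison, 3 of 10 where 8.95% of all genes were called. The median of the 10 was −0.25 beside 0.04 over all genes. The genotype difference of Tnfsf9 in cDC2 was 0.74 ± 0.63, with overlapping arrays (adjusted p = 1.0).

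Part of the spread of Tnfsf9 followed the array sets. Its shift from set A to set C was 1.53 ± 0.25 (adjusted p = 2.95e-05), and in WT pDC the set A array was at 4.73 and the set C array at 8.01. Against pDC, WT cDC2 were 2.16 ± 0.70 higher, with overlapping arrays and an adjusted p of 0.0453. It was called in 12 of the 23 fits with 1 array left out. Without WT pDC array 1 the difference was 1.24 (adjusted p = 0.298), without WT cDC2 array 3 it was 1.82 (adjusted p = 0.177), and without the 3 high-Xist arrays 1.75 (adjusted p = 0.186). In cKO that difference was 3.20 ± 0.55 (9.18-fold, adjusted p = 9.61e-05), and 3.47, 3.45 and 2.80 within the sets. The set shift was also called for Cd70 (0.95), Cd83 (0.86), Cd40 (0.78), Cd274 (−0.62) and Icosl (−0.41), and not for Cd80, Cd86, Pdcd1lg2 or Tnfsf4. Over all genes it was called in 61.7%, with a median of 0.31.

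Cd70, the ligand of CD27, was low in every group. Group means ran from 4.03 in cKO pDC to 4.77 in WT cDC2, all below the mean of their array medians, and 3 of 23 arrays exceeded their own median. Single arrays ran from 3.75 to 5.72, every neighbouring pair of groups overlapped, and no comparison called it. Under 6 of the 13 alternatives that tested it, Cd70 was called higher in cKO cDC2 than in cKO pDC, where the difference was 0.69 ± 0.32 (adjusted p = 0.154), and under 5 in cKO cDC1 than in cKO pDC (0.65 ± 0.34, adjusted p = 0.222). Cd70 lies next to Tnfsf9 on chromosome 17 in the RefSeq gene order, and Tnfsf9 was above the median on 22 arrays. Tnfsf4 lies next to Tnfsf18 on chromosome 1.

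**Figure D4:**
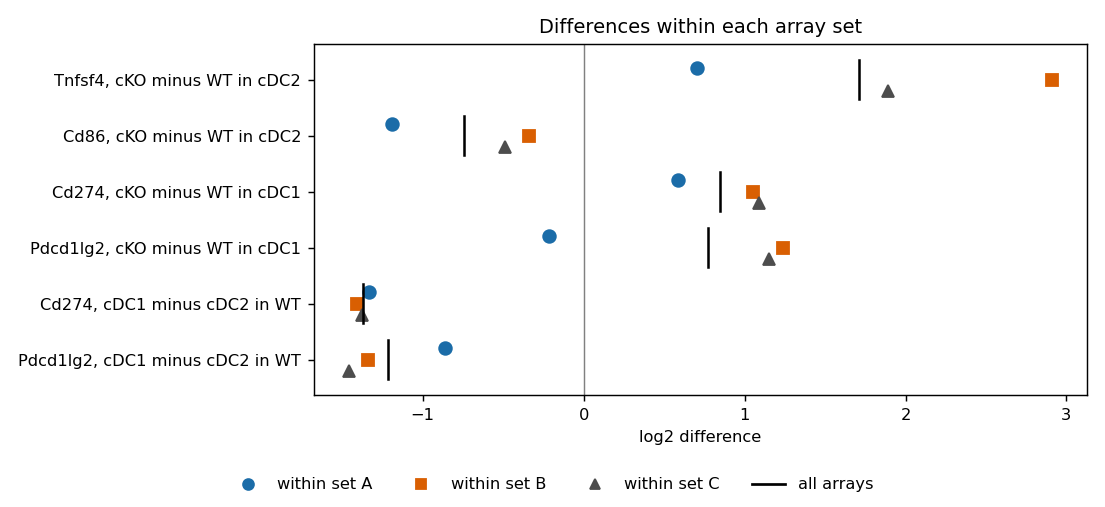
Log2 differences within array sets A, B and C for the member comparisons named in the text, with a marker shape per set and the value over all arrays as a black line. The Cd274 difference between WT cDC1 and cDC2 has almost the same value in each set (−1.33, −1.41 and −1.38), and the Tnfsf4 rise in cKO cDC2 spans 0.70 to 2.91.

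Of 28 further ligands for T cell receptors, 18 were tested, and each conventional type had 1 call. Lgals9, which encodes galectin-9, a ligand of TIM-3, read 7.21, 7.21 and 7.51 in WT cDC1 and 9.73, 9.06, 10.05 and 10.05 in cKO cDC1. It rose by 2.41 ± 0.34 (5.31-fold, limma adjusted p = 0.000161), from below every WT cDC2 array (8.49 to 9.67) into their range or above. Sema4a, which encodes a semaphorin that acts on T cells, read 6.30, 6.89 and 6.70 in WT cDC2 and 9.0, 8.61, 7.34, 8.49 and 8.43 in cKO cDC2. It rose by 1.74 ± 0.34 (3.35-fold, adjusted p = 0.00555), with 2.50, 0.45 and 1.76 within the sets. In pDC 0 of 18 were called, and Lgals9 had the smallest p there (0.77 ± 0.33, adjusted p = 1), 1 of 2 genes with an unadjusted p under 0.05. The median difference of the 18 was 0.11, 0.14 and 0.06 in cDC1, cDC2 and pDC.

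The receptors and the signalling genes around the set gave no genotype call. Of 9 receptors of these ligands 8 were tested and 0 called in any cell type, the smallest p belonging to Ctla4 in cDC1 (0.75 ± 0.49), Tnfrsf9 in cDC2 (0.57 ± 0.22, adjusted p = 0.396) and Cd28 in pDC (−0.96 ± 0.33). Unadjusted p under 0.05 were 0, 3 and 1 of the 8, and the median difference was 0.07, 0.47 and −0.02 in cDC1, cDC2 and pDC. The share of all genes at that unadjusted threshold is not given, so the counts in this paragraph cannot be judged against it. Of 22 genes of CD40 and NF-kB signalling 18 were tested and 0 called, with Traf5, an adaptor of CD40 and OX40 signalling, at 0.64 ± 0.20 in cDC1 (adjusted p = 0.259) and 0.49 ± 0.19 in cDC2 (adjusted p = 0.421). Here 1, 2 and 0 of 18 had an unadjusted p under 0.05, with medians of 0.01, 0.07 and 0.15. Of 19 genes for turnover and induction of these ligands, such as interferon and cytokine receptors and their kinases, 18 were tested and 0 called, with Jak2 at −0.50 ± 0.25 in cDC1; 0 of 18 had an unadjusted p under 0.05 in any cell type, and the medians were 0.03, 0.03 and 0.07.

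Other markers moved with the cDC2 comparison in which Tnfsf4, Sema4a and Cd86 were read. Over all genes in that comparison, 7781 of 12157 were above 0, with a median of 0.07. Of 12 genes of migratory mature dendritic cells 10 were tested; Ccl22 (2.13 ± 0.29) and Socs2 (1.77 ± 0.29) rose and 0 fell, the median was 0.58, and the list averaged 8.07 to 8.81 on WT and 8.60 to 9.45 on cKO arrays. Ccr7, their homing receptor, read 10.74 to 11.14 in WT and 10.69 to 11.14 in cKO cDC2. Of 10 T cell genes 7 were tested; Cd6 rose (0.83 ± 0.20, adjusted p = 0.0318), 6 of 7 were above 0, and the list averaged 6.01 to 6.53 in WT and 6.66 to 7.13 in cKO, without overlap. Of 10 red pulp macrophage genes 9 were tested, all but Cd5l, which was above the array median on 0 arrays. Mertk rose (2.40 ± 0.33), 8 of 9 were above 0 with a median of 0.50, and the list averaged 5.01 to 5.68 and 5.69 to 6.39. Of 10 monocyte and neutrophil genes 7 were tested, and 6 were above 0 with a median of 1.01. Ccr2 (1.94 ± 0.27) and Lyz2 (1.44 ± 0.37) rose, Csf3r (−1.29 ± 0.25) fell, and the list overlapped at 5.41 to 8.28 and 6.08 to 8.31. Of 7 NK cell genes 5 were tested and 0 were called. All 5 were above 0 with a median of 0.64, and the list averaged 5.01 to 6.21 and 5.90 to 6.78. Of the 10 cDC1 markers, Cd36 (1.56 ± 0.27) and Naaa (1.10 ± 0.26) rose in cKO cDC2, and of the 10 cDC2 markers 4 rose and 1 fell. From WT to cKO cDC2 the mean of Clec10a went from 5.78 to 8.19 and that of Mgl2 from 6.04 to 8.05. That of Clec4a4 went from 7.55 to 4.83. The part of other cells, or of a change in make-up within cDC2, in the cDC2 results was not tested.

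For the 7 genes whose group means spanned at least 2 log2 units, the 3 genes with the most similar 6-group profile were found among all genes tested, by the root mean square (RMS) distance between profiles centred on their own mean. Cd80 was nearest to Il1b (RMS 0.13), which encodes interleukin-1 beta, followed by Igsf6 and Bcl2a1c. Cd86 was nearest to Havcr2 (0.22), which encodes TIM-3, followed by Dock5 and Lrrk2. Tnfsf4 was nearest to Mapk10 (0.12), Gata3 (0.14) and the Fc receptor gene Fcgr3 (0.17), and Tnfsf9 to Aqp1 (0.11), Pklr (0.15) and Fabp5 (0.17). Cd40 was nearest to Lpcat1 (0.14), Cd83 to Rasgrp4 (0.17) and Cd274 to Bard1 (0.19). No profile of another gene of the set was among the 3 nearest of any.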

How the data were processed

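The deposited intensity values, 1 per probe set and array, were made by the authors with Affymetrix Expression Console and RMA, per the submitters' processing notes; versions are not given in the sources used here. Since they are linear (3.785 to 13980.7), log2 values were used. Of 28853 probe sets, 21789 name 1 gene, 1621 several and 5443 none in the annotation used. A gene was tested where its probe set was above the median of 3 or more arrays, through the passing probe set of highest mean level.

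limma 3.58.1 (R 4.3.3) fitted 6 group means to 23 arrays (17 residual degrees of freedom), two-sided, with Benjamini-Hochberg adjustment over 12157 genes per comparison. The code was tested on simulated data. The number of arrays limits the precision. Genes named are the 10 members, up to 4 called genes of each companion list or the smallest p where none was called, and the nearest profiles. Members, lists, array sets and tests were chosen with earlier results of these data known. Alternatives changed normalization, log scale, filter, probe set, block, variance model and arrays used. Figures used matplotlib 3.10.9.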

Additional observations from a re-analysis of the deposited data

Results flagged for a closer look

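Cd80 on cKO cDC1 array 2 read 10.18, while the other 3 arrays of that group read 9.30 to 9.41. The gap to the nearest of them was 0.87 of the range of the group. This was 1 of 30 groups checked, and chance alone gives about 1 in 20. WT cDC1 array 2, of the same array set B, was likewise the highest of its group at 10.33. The other Cd80 probe set read 9.92 on the same cKO array and 9.49 to 9.83 on the rest.

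The genotype difference of Tnfsf4 in cDC2 exceeded that in pDC by 1.66 ± 0.38, tested as a difference of differences (limma adjusted p = 0.0461). It was 1 of 30 such differences tested over the members. All 5 cKO cDC2 arrays were above WT, while in pDC the cKO arrays (3.59 to 3.89) lay inside the WT range of 3.41 to 4.06. Tnfsf4 passed the filter only through the cKO cDC2 arrays. Every pDC array lay below its own array median, where a change may go unseen.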

How the results depend on the processing

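Of 120 member differences tested, 36 were called, and 29 of them stayed called under every one of the 14 alternatives that tested them and in all 23 fits with 1 array left out. No called difference changed sign, while some uncalled ones did; of the values of single members under the 14 alternatives, 1607 kept their call or lack of it, 32 passed newly and 17 no longer passed. For cKO minus WT in cDC1, the count of members called went from 0 to 1 with 3 array sets as a term. In cDC2 it went from 1 to 2 with that term, and to 0 with a filter of 7 arrays, which does not test Tnfsf4. For the genotype effect in cDC1 minus that in cDC2 it went from 0 to 1 with 3 or 2 array sets as a term, an intensity trend or array weights, and ranged from 0 to 1 with 1 array left out. For cDC2 minus pDC it went from 1 to 0 with median centring, quantile normalization, a filter of 7 arrays, no filter, every probe set kept, the groups compared alone, array weights or log2 of the value plus 16, and ranged from 0 to 1 with 1 array left out. For cDC1 minus cDC2 in WT it went from 2 to 1 with the groups compared alone and ranged from 0 to 3 with 1 array left out. For cDC1 minus cDC2 in cKO it went from 3 to 5 with 3 array sets as a term, array weights or the replicate block. The cause of these moves was not tested.

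The replicate number as a block changed no other count by more than 1.5 times. No label says whether the numbers pair the samples. Of 49 pairs of arrays with the same number in different groups, 32 correlated above 0.1 in their deviations from group means (median 0.46, range −0.30 to 0.70). Of 169 pairs with different numbers 47 did (median −0.20), and of 74 pairs of the same set 70 did. The best correlate in another group had the same number for 12 of 23 arrays and the same set for 22 of 23. In WT the numbers 1, 2 and 3 were sets A, B and C, so pairing by number and by set cannot be told apart there. Tnfsf4 outside cKO cDC2 and Cd70 in every group lay at or below the array medians on most arrays, where folds may be understated.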
